A study of Mus musculus with 6 samples.

Results

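The 9 genes described here are developmental regulators that are known as targets of Polycomb silencing in embryonic stem cells: Halr1, Hoxb1, Hoxb3, Hoxb8, Evx1, Meis2, Msx1, Pax6 and Neurog3. They were chosen by name with earlier results of these data known, and all 9 are among the 1653 genes listed in every library. RNA was sequenced from 2 groups of mouse embryonic stem cells of strain C57BL/6, 3 Yaf2KO libraries, whose cells were made with Cas9, and 3 wild-type libraries. All cells of both groups grew in fetal calf serum with leukemia inhibitory factor on mouse embryonic fibroblasts inactivated with mitomycin-C. The labels do not say whether the Yaf2KO cells are 1 clone or several, or whether replicates are separate cultures, so a p-value here reflects the spread among these libraries alone, and that spread may be technical. The study's title names regulation of expression by Yaf2 as its subject, and Yaf2KO against wild type is its contrast.

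Polycomb repressive complexes keep developmental genes silent until a lineage needs them: PRC1 monoubiquitinates histone H2A and PRC2 methylates histone H3 at CpG-rich promoters. YAF2 and its paralogue RYBP are alternative subunits of the variant forms of PRC1. In pluripotent cells the Hox clusters and many other homeobox genes carry both marks and make little RNA. The files hold RNA reads and no chromatin data, so silencing by Polycomb is background here and was not measured. Raw counts at unknown depth do not show whether a gene is silent, and Pax6 had reads in every wild-type library, 59.5% of those of the set. Of the 9, Halr1 is a long non-coding RNA and Neurog3 a basic helix-loop-helix gene, so 7 are homeobox genes.

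The listed genes are part of each library. Their counts summed to 143682 to 451075 per Yaf2KO library and to 56367 to 72975 per wild-type library, which is not sequencing depth, and library totals were not used here. Over all listed genes Yaf2KO held 4.34 times the reads of wild type, and 1524 of the 1653 genes (92.2%) had a larger sum in Yaf2KO. Each member is therefore given as raw counts, as a share of the listed reads and, where it had enough reads, as an edgeR fold change relative to the typical listed gene. Yaf2 itself is not among the rows used here. Of 14 naive pluripotency markers 7 were listed, and both groups had reads of them. Nanog had 20052, 8710 and 2816 counts in Yaf2KO 1 to 3 and 2239, 1750 and 2756 in wild type 1 to 3. Per 1000000 listed reads, the 7 summed to 93228, 60739 and 37305 in Yaf2KO 1 to 3. In wild type 1 to 3 they summed to 62764, 59325 and 62871, so the Yaf2KO libraries differed more among themselves. In bulk RNA, fewer cells that express a gene and less RNA per cell cannot be told apart.

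Positions are those of the files, in mm10, and were identical to GENCODE vM21 for all 9 genes. Halr1 (6:52102949-52113684, plus strand, a lincRNA) and Evx1 (6:52313498-52318378, plus strand) lie on opposite sides of the Hoxa cluster, and Evx1 is 52.6 kb from Hoxa13. Hoxb8 (11:96281905-96285315), Hoxb3 (11:96323326-96347930) and Hoxb1 (11:96365752-96368256) lie in this order in the Hoxb cluster, all on the plus strand. Pax6 (2:105668900-105697364, plus strand) and Meis2 (2:115863064-116065839, minus strand) share a chromosome, Msx1 is at 5:37820485-37824583 on the minus strand, and Neurog3 is at 10:62133090-62134763 on the plus strand. Each count covers a whole gene, with no division into exons or isoforms. No strand setting is given in the sources used here. Reads of Hoxb3, Evx1, Pax6 and Neurog3 can therefore not be told from those of the genes that overlap them on the opposite strand, which are Hoxb3os and Gm11536, Evx1os, Pax6os1 and Fam241b.

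Promoter sequence, the 250 bases before each annotated start and 50 bases after it, was available from RefSeq (GRCm38.p6) for 8 of the 9 genes by symbol, all but Hoxb3. CpG dinucleotides, which CXXC-domain proteins of variant PRC1 bind when unmethylated, numbered from 8 in Halr1 to 29 in Msx1 per window of 300 bases. The median over the members' 9 windows was 13, Pax6 having 2 of them. It was 7 (quartiles 3 and 16) over the 885 windows of listed genes and 7 (quartiles 3 and 20) over all 32841 windows. The members' median thus lay between the quartiles of both. The Meis2 window and 1 of the 2 Pax6 windows lie inside the gene as GENCODE places it. The 3 sequences shown are those of the genes for which a fold change could be fitted. Each runs 5′ to 3′ and stops before the start of the gene, and capitals mark CpG:
Halr1, chr6:52102699-52102948, plus strand: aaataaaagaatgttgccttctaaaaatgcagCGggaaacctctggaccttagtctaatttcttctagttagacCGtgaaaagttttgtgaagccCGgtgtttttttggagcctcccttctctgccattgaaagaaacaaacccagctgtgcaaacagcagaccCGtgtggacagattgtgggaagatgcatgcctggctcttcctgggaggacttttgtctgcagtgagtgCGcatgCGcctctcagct
Pax6, chr2:105668646-105668895, plus strand: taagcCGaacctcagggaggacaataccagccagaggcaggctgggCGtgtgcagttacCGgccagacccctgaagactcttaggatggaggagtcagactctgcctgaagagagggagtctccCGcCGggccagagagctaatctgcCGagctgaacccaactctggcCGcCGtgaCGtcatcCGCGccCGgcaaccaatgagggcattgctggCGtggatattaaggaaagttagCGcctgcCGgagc
Msx1, chr5:37824586-37824835, minus strand: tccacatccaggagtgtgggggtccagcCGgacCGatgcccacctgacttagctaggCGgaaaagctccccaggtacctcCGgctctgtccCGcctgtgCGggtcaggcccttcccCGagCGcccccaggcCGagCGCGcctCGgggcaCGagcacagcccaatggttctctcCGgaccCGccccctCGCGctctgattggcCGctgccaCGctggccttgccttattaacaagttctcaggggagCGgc
In these stretches Halr1 held 6 CpG, Pax6 15 and Msx1 20.

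HOX proteins bind DNA together with PBX and MEIS partners, and the mouse Hoxb1 promoter region is known for an element through which HOX and PBX proteins maintain Hoxb1 in the hindbrain. The letters TGATNNAT, a core of such joint sites, were searched on both strands of the same windows. They occurred in 2 of the members' 9 windows, those of Hoxb1 and Hoxb8, in 83 of the 885 windows of listed genes (9.38%) and in 2906 of all 32841 windows (8.85%). Counted from the RefSeq start, the Hoxb1 match lies at positions -162 to -155 on the gene's strand, and the Hoxb8 match at -11 to -4 on the opposite strand. For Hoxb1 the GENCODE start, before which the stretch shown stops, lies upstream of the RefSeq start. These 2 stretches are shown because the matches are in them, in capitals:
Hoxb1, chr11:96365508-96365751, plus strand: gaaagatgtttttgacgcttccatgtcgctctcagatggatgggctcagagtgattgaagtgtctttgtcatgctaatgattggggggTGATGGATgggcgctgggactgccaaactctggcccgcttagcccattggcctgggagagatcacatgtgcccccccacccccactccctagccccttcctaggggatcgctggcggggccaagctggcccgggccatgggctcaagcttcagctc
Hoxb8, chr11:96281655-96281904, plus strand: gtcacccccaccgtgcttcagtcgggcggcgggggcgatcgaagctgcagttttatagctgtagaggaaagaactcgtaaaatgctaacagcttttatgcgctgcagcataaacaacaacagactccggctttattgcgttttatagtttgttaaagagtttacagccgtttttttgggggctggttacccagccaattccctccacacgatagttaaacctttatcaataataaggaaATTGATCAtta
A match is a description of the letters and not of a bound site.

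All 9 genes had more reads in Yaf2KO than in wild type when the libraries of a genotype were summed, as had 92.2% of the listed genes. The summed raw count of the set was 572, 686 and 161 in Yaf2KO 1 to 3 and 64, 72 and 49 in wild type 1 to 3. The ratio of the group sums was 7.67 (95% counting interval 6.58 to 8.99), against 4.34 for the listed genes as a whole. The median log2 ratio of raw sums over the 9 genes was 3.46, and 2.00 over the 1494 listed genes with reads in both groups. Since the 9 genes were put together with results of these data known, both comparisons with the listed genes are a description only. As a share of listed reads, in counts per 1000000 of them (CPM), the set had 1707 ± 891 CPM in Yaf2KO and 975 ± 303 in wild type (SD, n = 3 each). On that scale the groups overlapped, since Yaf2KO 3 had 1121 (954 to 1307) and wild type 2 had 1277 (1000 to 1608; intervals are exact Clopper-Pearson at 95%). Intervals here and further on cover counting error only.

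In raw counts every Yaf2KO library lay above every wild-type library for 5 of the 9 genes, Halr1, Hoxb1, Meis2, Pax6 and Neurog3, beside 27.4% of all listed genes. As a share of listed reads the groups were separate for 2 of the 9, Halr1 and Meis2, beside 3.93% of all listed genes. In raw counts 0 of the 9 lay below every wild-type library in all Yaf2KO libraries, as did 0 of the 1653 listed genes.

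**Figure D1:**
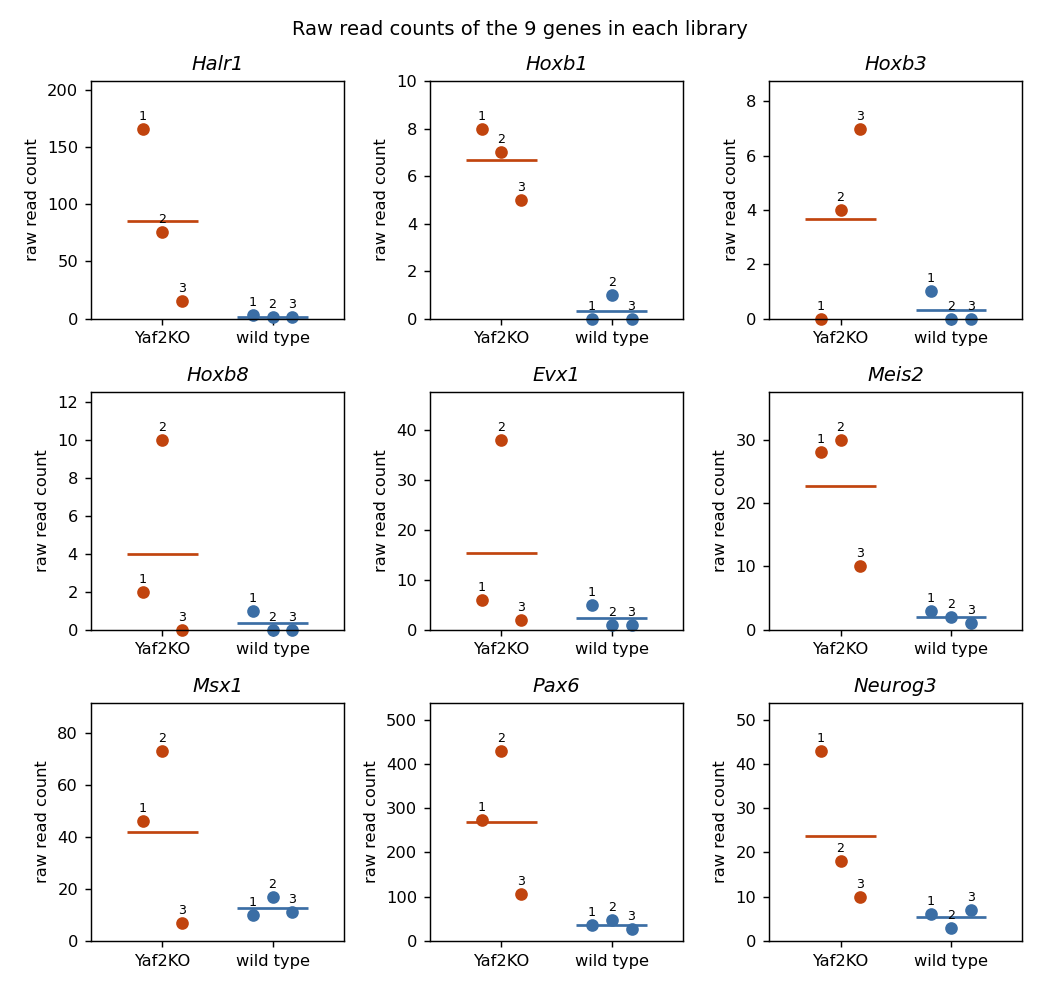
Raw read counts (linear axes from 0, a scale of its own for each gene) of the 9 genes, with Yaf2KO left and wild type right; points are libraries numbered by replicate and bars are group means. Halr1 stands at 166, 76 and 15 in Yaf2KO against at most 3 in wild type, while Evx1 and Hoxb8 have their highest count in Yaf2KO 2.

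Summed, the Hox-associated genes had a larger ratio than the other 5, whose sums had a ratio of 6.32. Halr1 gave 257 of the 300 Hox-associated reads in Yaf2KO. Over Halr1, Hoxb1, Hoxb3 and Hoxb8, summed raw counts were 176, 97 and 27 in Yaf2KO 1 to 3 and 5, 2 and 1 in wild type 1 to 3. The ratio of group sums was 37.5 (counting interval 18.8 to 87.7). As a share of listed reads they came to 390 (335 to 452), 386 (313 to 471) and 188 (124 to 273) CPM in Yaf2KO 1 to 3. In wild type 1 to 3 they came to 76.2 (24.8 to 178), 35.5 (4.30 to 128) and 13.7 (0.35 to 76.3) CPM. The groups did not overlap on either scale, although the intervals of Yaf2KO 3 and wild type 1 did. Hox-associated reads made up 21.1% of the reads of the set in Yaf2KO and 4.32% in wild type. No p is given for these sums, because the genes were put together by name after results of these data were known.

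**Figure D2:**
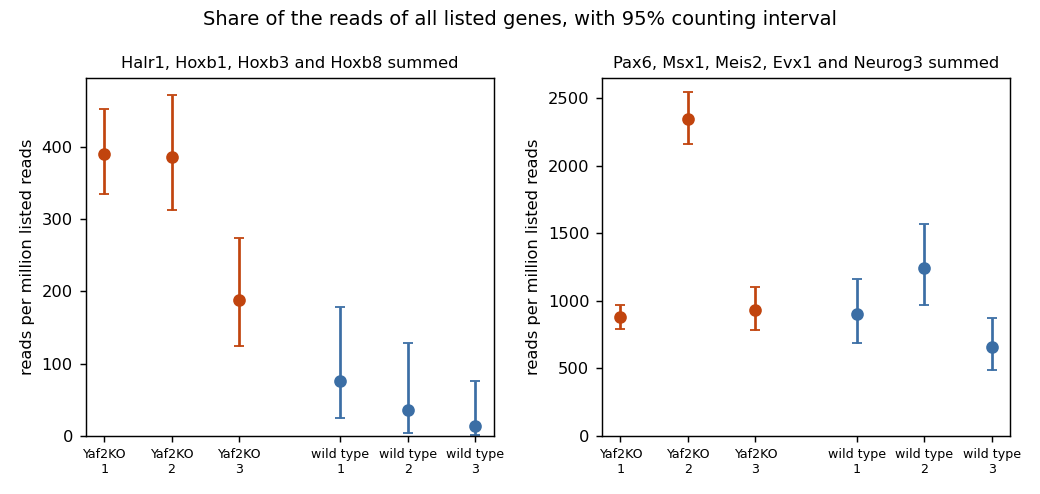
Share of the listed reads (CPM) in each library for the 4 Hox-associated genes summed (left) and the other 5 summed (right); bars are exact 95% binomial intervals and cover counting error only. The Hox-associated share is 188 to 390 in Yaf2KO and 13.7 to 76.2 in wild type, while the other 5 genes overlap except for Yaf2KO 2 at 2345.

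Halr1, the Hoxa-adjacent long non-coding RNA, had 166, 76 and 15 counts in Yaf2KO 1 to 3 and 3, 1 and 1 in wild type 1 to 3, a ratio of 51.4 (counting interval 21.7 to 160). Scaled to the listed genes with TMM it averaged 252 ± 122 CPM in Yaf2KO and 25.5 ± 16.8 in wild type (SD, n = 3 each). The groups did not overlap in counts or in scaled values, with Yaf2KO 3 the lowest of the Yaf2KO libraries. Halr1 passed the low-count filter through its Yaf2KO counts, so its place among the 376 tested genes supports nothing. Its fitted log2 fold change was 3.27 (SE 0.76), with an adjusted p of 0.111 by edgeR with Benjamini-Hochberg adjustment. Halr1 thus missed the threshold of 0.05, past which 3 of the 376 genes (0.798%) lay as higher in Yaf2KO and 0 as lower, while 16 genes had an unadjusted p under 0.05. DESeq2 on the same genes gave 0.0205 (2.66% of them called higher) and edgeR without a low-count filter 0.00584 (0.916% called), so the call depends on the method. Without Yaf2KO 1 or Yaf2KO 2 it had too few reads to be tested.

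The genes whose scaled profile over the 6 libraries was most like that of Halr1 were Wnt8a (Pearson r = 0.96) and Axin2 (r = 0.94), a WNT ligand of the gastrulating embryo and a WNT feedback gene. Wnt8a had 335, 183 and 82 counts in Yaf2KO 1 to 3 and 7, 3 and 4 in wild type 1 to 3. Axin2 had 465, 263 and 117 counts in Yaf2KO and 55, 32 and 38 in wild type. These likenesses are a description over 6 libraries that differ in genotype and in listed reads, which all genes of a library share.

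The 3 Hoxb genes had few reads. Hoxb1, which patterns the hindbrain at the fourth rhombomere, had 8, 7 and 5 counts in Yaf2KO 1 to 3 and 0, 1 and 0 in wild type 1 to 3. It was the Hox gene with reads in every Yaf2KO library, and its counts did not overlap between the groups. The ratio of 20 reads to 1 has a counting interval of 3.20 to 829. As a share of listed reads the groups overlapped at the margin, with Yaf2KO 1 at 17.7 CPM and wild type 2, with its 1 read, also at 17.7.

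Hoxb3, expressed in the hindbrain behind Hoxb1 and in the neck, had 0, 4 and 7 counts in Yaf2KO 1 to 3 and 1, 0 and 0 in wild type 1 to 3, a ratio of 11 reads to 1 (counting interval 1.60 to 473). Hoxb8, a gene of the trunk and spinal cord, had 2, 10 and 0 in Yaf2KO and 1, 0 and 0 in wild type, a ratio of 12 reads to 1 (counting interval 1.78 to 513). Each was at 0 in 1 Yaf2KO library, a different one, so for both genes the groups overlapped. A count of 0 allows up to 3 counts in that library, which is 6.65 CPM in Yaf2KO 1 and 20.9 in Yaf2KO 3. In wild type 1 to 3 it allows up to 45.7, 53.2 and 41.1 CPM. The highest Yaf2KO shares were 34.8 CPM for Hoxb1, 39.8 for Hoxb8 and 48.7 for Hoxb3. A wild-type count of 0 therefore does not show a lower share of Hoxb1 or Hoxb8. Nor does it for Hoxb3 in wild type 2, where up to 53.2 CPM is allowed. The 48.7 CPM of Hoxb3 rests on 7 counts, and its interval of 19.6 to 100 includes the 41.1 CPM allowed in wild type 3. Summed, the 3 Hoxb genes had 10, 21 and 12 counts in Yaf2KO and 2, 1 and 0 in wild type (ratio 14.3, counting interval 4.59 to 72.2). Their share of listed reads overlapped, at 22.2 CPM in Yaf2KO 1 and 30.5 in wild type 1. None passed the low-count filter. Fitted without a filter they had log2 fold changes of 2.45 (SE 1.62), 2.07 (SE 1.70) and 1.75 (SE 1.69) for Hoxb1, Hoxb3 and Hoxb8, each at an adjusted p of 0.9995 by edgeR over 1638 genes.

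Of 13 Hox cluster non-coding RNAs Halr1 alone was listed. Of the 39 Hox genes, 4 were listed, all of the Hoxb cluster, and 0 of the 11 Hoxa, 9 Hoxc and 9 Hoxd genes. The one listed Hox gene outside the set, Hoxb5, had 15, 0 and 0 counts in Yaf2KO 1 to 3 and 0, 1 and 0 in wild type 1 to 3. Its Yaf2KO reads all came from Yaf2KO 1, where Hoxb3 had none. Among listed genes within 500 kb of the Hoxb members, the one with the highest mean that is no member, Gm37179, had 15, 11 and 5 counts in Yaf2KO and 2, 2 and 1 in wild type. Within 500 kb of Halr1 and Evx1 it was RP23-92M3.1, with 7, 4 and 1 counts in Yaf2KO and 1, 0 and 8 in wild type.

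Evx1, an even-skipped homeobox gene of the primitive streak and of spinal interneurons, had 6, 38 and 2 counts in Yaf2KO 1 to 3 and 5, 1 and 1 in wild type 1 to 3. Yaf2KO 2 held 82.6% of its Yaf2KO reads, while Yaf2KO 1 was 1 read above wild type 1 and Yaf2KO 3 lay within the wild-type range. The share in Yaf2KO 2 was 151 CPM (107 to 208), against 13.3 and 13.9 in Yaf2KO 1 and 3 and 13.7 to 76.2 in wild type. The streak gene T was also highest in Yaf2KO 2, with 20, 140 and 38 counts in Yaf2KO and 8, 7 and 4 in wild type. Unfiltered, the log2 fold change of Evx1 was 1.05 (SE 0.98, adjusted p = 0.9995 by edgeR).

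Meis2, a TALE homeobox gene whose protein is a DNA-binding partner of HOX and PBX proteins, had 28, 30 and 10 counts in Yaf2KO 1 to 3 and 3, 2 and 1 in wild type 1 to 3. The groups did not overlap in counts, nor as a share of listed reads, with 83.7 ± 31.2 CPM in Yaf2KO and 31.6 ± 16.4 in wild type (SD, n = 3 each). Its ratio of raw sums was 11.3 (counting interval 4.95 to 31.96), beside 4.34 for the listed genes as a whole. How many listed genes have a counting interval above 4.34 was not counted. Meis2 did not pass the low-count filter, and its unfiltered log2 fold change was 1.71 (SE 0.95, unadjusted p = 0.0726, adjusted p = 0.9995 by edgeR). It was the 1 listed gene of 9 TALE cofactors.

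Pax6, a paired-box homeobox gene of the eye, forebrain and pancreas, held most reads of the set, 56.9% in Yaf2KO and 59.5% in wild type. It had 273, 430 and 105 counts in Yaf2KO 1 to 3 and 35, 47 and 28 in wild type 1 to 3, with no overlap. Scaled to the listed genes it had 562, 1696 and 792 CPM in Yaf2KO and 522, 811 and 404 in wild type, and these overlapped. On this scale Yaf2KO 2 was the 1 Yaf2KO library above every wild-type library. By edgeR the fold change on the log2 scale came to 0.81 (SE 0.55) at an adjusted p of 0.950, and to 0.21 without Yaf2KO 2. The genes most like Pax6 over the 6 libraries were Cav1 (Pearson r = 0.90), which encodes a coat protein of caveolae, with 71, 303 and 115 counts in Yaf2KO and 15, 31 and 6 in wild type, and the WNT ligand gene Wnt4 (r = 0.88), with 57, 241 and 89 in Yaf2KO and 16, 26 and 4 in wild type. Wt1, the one listed gene within 500 kb of Pax6, had 267, 218 and 152 counts in Yaf2KO and 37, 40 and 24 in wild type (edgeR log2 fold change 0.68 with SE 0.49 and adjusted p = 0.950).

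Msx1, a homeobox gene of neural crest, limb and tooth buds, was the member that lay below the typical listed gene in the fit. It had 46, 73 and 7 counts in Yaf2KO 1 to 3 and 10, 17 and 11 in wild type 1 to 3, so that Yaf2KO 3 fell under every wild-type library. Scaled, it had 145 ± 125 CPM in Yaf2KO and 200 ± 80.6 in wild type (SD, n = 3 each). By edgeR its fold change was -0.44 on the log2 scale (SE 0.70) at an adjusted p of 0.950, and 0.07 without wild type 2. The sign also turned, to 1.72, when all libraries were taken as equally deep. The genes most like it over the 6 libraries were Gm1966 (Pearson r = 0.92), with 28, 31 and 3 counts in Yaf2KO and 8, 7 and 6 in wild type, and the aquaporin gene Aqp3 (r = 0.85), with 578, 465 and 101 in Yaf2KO and 139, 114 and 81 in wild type.

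Neurog3, which directs endocrine cells of the pancreas, had 43, 18 and 10 counts in Yaf2KO 1 to 3 and 6, 3 and 7 in wild type 1 to 3. The raw counts were separate, but its ratio of 4.44 (counting interval 2.55 to 8.18) was close to the 4.34 of all listed genes. As a share of listed reads it had 78.9 ± 14.3 CPM in Yaf2KO and 80.2 ± 23.5 in wild type (SD, n = 3 each), a difference smaller than the spread between libraries. No other of the 13 endoderm and endocrine markers was listed.

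**Figure D3:**
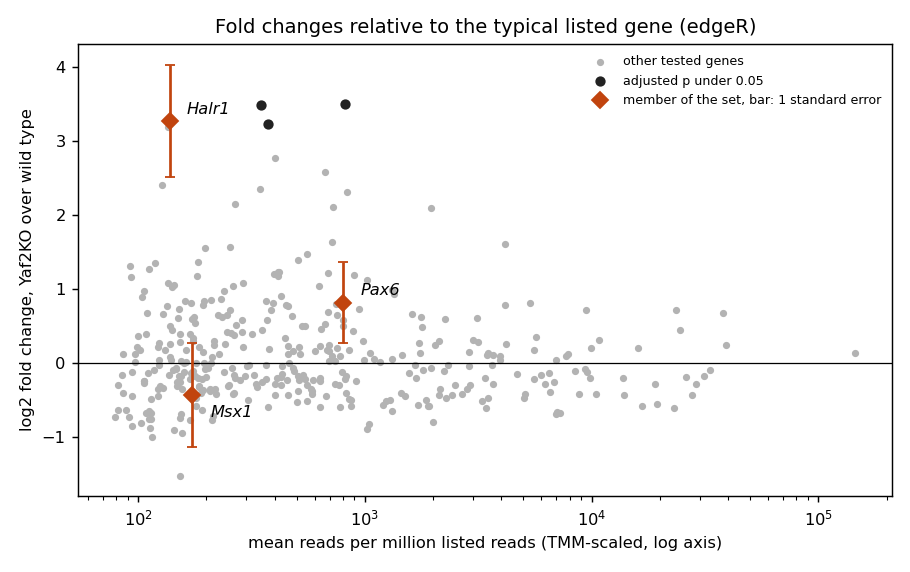
Log2 fold change of Yaf2KO over wild type (edgeR, relative to the typical listed gene) against mean TMM-scaled CPM (log axis) for 376 tested genes; diamonds with bars of 1 standard error are the tested members. Halr1 at 3.27 lies near the 3 called genes in fold change but at a lower mean, Pax6 is at 0.81 and Msx1 at -0.44.

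The fit covered 3 of the 9 members, and 0 were called. The other 6 did not pass the low-count filter. With every library treated as of equal depth and no scaling on listed genes, 5 members were tested and 4 were called by edgeR, all higher in Yaf2KO: Halr1 (log2 fold change 5.58), Meis2 (3.42), Pax6 (2.87) and Neurog3 (2.12). The background is then 75.7% of 415 tested genes, and that scaling moved the median gene by 2.16 log2 units.

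Per kilobase of exon, mean raw counts ran from 87.3 for Halr1 through 23.0 for Pax6, 14.1 for Neurog3 and 13.6 for Msx1 to 0.863 for Hoxb3 in Yaf2KO. On the same scale in wild type Msx1 had 4.09, Neurog3 3.19, Pax6 3.14, Halr1 1.70 and Hoxb3 0.078. Halr1 was thus the first of the 9 in Yaf2KO and the fourth in wild type.

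Among themselves the 9 genes did not follow 1 order of libraries. In raw counts Yaf2KO 2 was the highest Yaf2KO library for 5 of them (Hoxb8, Evx1, Meis2, Msx1 and Pax6), Yaf2KO 1 for 3 (Halr1, Hoxb1 and Neurog3) and Yaf2KO 3 for Hoxb3. Yaf2KO 3 was the lowest for 8. Over all listed genes Yaf2KO 1 held 53.3% of the Yaf2KO reads, Yaf2KO 2 29.7% and Yaf2KO 3 17.0%, and of the reads of the 9 genes they held 40.3%, 48.3% and 11.3%. Across the 6 libraries the scaled profile of Halr1 had a Pearson r of 0.52 with Pax6 and -0.27 with Msx1, and Pax6 one of 0.38 with Msx1.

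**Figure D4:**
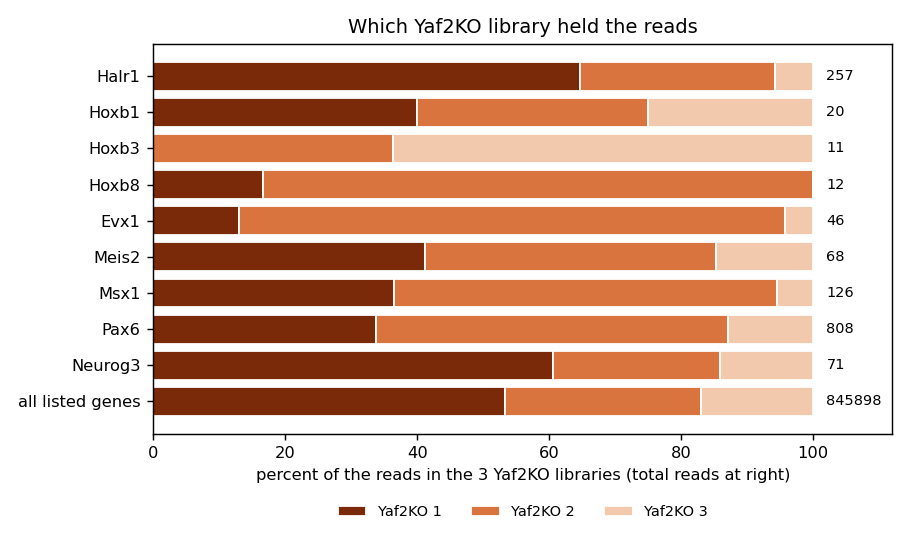
Percent of each gene's Yaf2KO reads found in Yaf2KO 1, 2 and 3, with the total reads at right and all listed genes in the bottom row. Yaf2KO 1 held 64.6% of the Halr1 reads, Yaf2KO 2 82.6% of the Evx1 and 83.3% of the Hoxb8 reads, and Yaf2KO 3 63.6% of the 11 Hoxb3 reads.

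The cultures held feeder fibroblasts, and Pax6 and Evx1 are themselves markers of neural and streak cells, so markers of these cells are given beside the members. Of 22 fibroblast markers 6 were listed and 0 called, and their summed share was 8023, 46229 and 25932 CPM in Yaf2KO 1 to 3 and 26450, 25990 and 16211 in wild type 1 to 3. Among the Yaf2KO libraries the share was highest in Yaf2KO 2, as were those of Pax6, Msx1, Evx1, Hoxb8 and Meis2. It was lowest in Yaf2KO 1, where Halr1 and Neurog3 had their highest share. Hoxb1 and Hoxb3 had their highest share in Yaf2KO 3, where Halr1, Neurog3, Msx1 and Hoxb8 had their lowest. Tagln, the most abundant of the fibroblast markers, had 2493, 7092 and 2428 counts in Yaf2KO and 1200, 900 and 780 in wild type. Of 20 neural markers 5 were listed, Pax6 included, with summed shares of 5748, 15780 and 12813 in Yaf2KO and 11693, 13483 and 7975 in wild type. Of the 4 tested, which are Pax6 itself and 3 genes outside the set, 0 were called. Their median log2 fold change, Pax6 included, was 1.22 by edgeR beside -0.03 over the 376 tested genes. Nes, the most abundant, had 1889, 3046 and 1507 counts in Yaf2KO and 705, 672 and 537 in wild type (log2 fold change -0.13, SE 0.43). Stmn4 had 152, 312 and 224 in Yaf2KO and 16, 35 and 14 in wild type, without overlap (1.63, SE 0.69). Nefm had 279, 175 and 5 in Yaf2KO and 10, 6 and 3 in wild type, with Yaf2KO 3 inside the wild-type range (2.15, SE 0.92). Of 19 streak and mesoderm markers 8 were listed, Evx1 included, with 1401, 4360 and 3202 in Yaf2KO and 1814, 1845 and 1055 in wild type. Of the 6 tested, edgeR called 1, beside 0.798% of the 376 tested genes called higher, and their median log2 fold change was 0.82. The called gene was Wnt8a, at a log2 fold change of 3.23 (SE 0.55) and an adjusted p of 0.0434. Sp5, the most abundant, had 0.49 (SE 0.65), Wnt3 0.77 (SE 0.67) and Cdx1 -0.26 (SE 0.61), and none of these was called. The part of these cells in the member counts was not tested.

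Other developmental regulators that Polycomb is known to silence gave the wider frame. Of 140 such genes outside the Hox clusters, 21 were listed, 5 of them members. All 21 had larger sums in Yaf2KO, beside 92.2% of all listed genes, and 8 had separate raw counts, beside 27.4%. Of these 21, 9 could be tested, of which 7 are not members and the others are Pax6 and Msx1. Of the 9, 0 were called in either direction, with a median log2 fold change of 0.68, beside -0.03 over all tested genes. Sox21, a neural SOX gene, had 231, 152 and 44 counts in Yaf2KO 1 to 3 and 45, 42 and 18 in wild type 1 to 3 (edgeR log2 fold change -0.23 with SE 0.53 and adjusted p = 0.950). Among 17 genes that respond to retinoic acid, the signal that opens Hox clusters in stem cells, 6 were listed, Meis2 and Hoxb1 included, and 3 tested with 0 called. Of those, Stra8 had a log2 fold change of 0.18 (SE 0.49), Cdx1 of -0.26 (SE 0.61) and Dhrs3 of 0.07 (SE 0.78). Of 35 PRC1 components Bcor was the one listed (-0.42, SE 0.34, adjusted p = 0.950 by edgeR), and 0 of 13 PRC2 components were.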

How the data were processed

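The authors deposited 1 table per library with raw read counts per gene for the same 1653 genes, per the file headers. The sources used here do not say how the list was made. Cufflinks 2.2.1, HTSeq 0.6.0, TopHat2 2.0.12 and the build mm10 appear, without roles, in the submitters' processing notes. The sum of the listed counts, 56367 to 451075 per library, is not the depth.

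Groups and replicate numbers came from the titles. Replicates differed by more than sampling noise (lowest chi-square per degree of freedom 5.01) and were each counted once. The whole table was fitted with edgeR 4.0.16 (R 4.3.3; TMM, filterByExpr, robust quasi-likelihood test, Benjamini-Hochberg adjustment at 0.05), which was tested on simulated data. Standard errors come from the fit. Scaled values are relative to the listed genes, since TMM centres the fit on the bulk of the list. Ratios of raw sums have exact conditional Poisson intervals, and shares exact Clopper-Pearson intervals at 95%. Of a 0, up to 3 counts were allowed.

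The members, gene lists and markers were chosen with earlier results of these data known. Beyond all 9 members the text names at most the 3 most abundant listed genes of a list, the 2 tested genes with the highest Pearson r to a tested member (log2 scaled reads, prior count 1) and 1 listed neighbour within 500 kb. T is named beyond this rule, after its values were seen. Alternatives were DESeq2 (1.42.0) size factors, upper-quartile factors, listed totals, equal depth, the DESeq2 Wald test, limma-voom (3.58.1), other low-count filters, a replicate block, an adjusted p under 0.01 and each library left out. Python 3.11.15 with pandas 2.3.3, scipy 1.17.1 and matplotlib 3.10.9 was used for the rest.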

Additional observations from a re-analysis of the deposited data

How the results depend on the processing

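The number of members called was 0 by edgeR with TMM (1 of 3 tested at an unadjusted p under 0.05, and 1 by DESeq2). It was also 0 with DESeq2 size factors, upper-quartile factors, listed totals, limma-voom, an adjusted p under 0.01 and each library left out. It was 1, Halr1, with the DESeq2 Wald test, with no filter and at a mean CPM of 1 or more, and 4 at equal depth. Of all listed genes, 3 were called by edgeR with TMM, 10 by DESeq2, 15 with no filter, 15 at a mean CPM of 1 or more, 314 at equal depth, and 0 by limma-voom (14 at an unadjusted p under 0.05) and at an adjusted p under 0.01. With single libraries left out there were 0 to 11: 0 without wild type 1, 2 or 3 (17, 16 and 21 at an unadjusted p under 0.05), 11 without Yaf2KO 1, 1 without Yaf2KO 2 and 2 without Yaf2KO 3. Equal depth by construction does not remove the excess of reads in Yaf2KO, and dropping the filter tests more genes; otherwise the cause was not tested.

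The log2 ratio of the summed counts of the set was 2.94, between 2.57 and 3.35 with single libraries left out, and 0.81 after division by either listed total. For the Hox-associated genes it was 5.23, between 4.54 and 6.06 with single libraries left out, 2.94 after division by either total and 3.84 without Halr1. Halr1 kept a positive log2 fold change in 13 alternatives (2.96 to 5.58, adjusted p from 0.00578 to 0.541) and Pax6 in 15 (0.21 to 2.87, adjusted p from 0.0198 to 0.9998). Msx1 turned in 2 of 15, at equal depth (1.72) and without wild type 2 (0.0665); with single libraries left out it ranged from -1.40 to 0.0665.

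With replicate number added as a block (a paired fit), 0 genes (18 at an unadjusted p under 0.05) and 0 members were called, and Halr1 had a log2 fold change of 3.25 (adjusted p = 0.177). The numbers are only shared. Deviations from the group mean had correlations of 0.03, 0.17 and 0.16 between libraries of the same number (376 genes). Between libraries of different numbers they ran from -0.34 to 0.24, a range that includes those values. Each of the 3 Hoxb genes had 1 wild-type read in all, so their ratios have wide counting intervals, and the depth behind them is unknown.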
